A study of Mus musculus with 4 samples.

Results

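The mitochondrial ribosomal proteins were followed in cells sorted as osteoblasts, the cells that form bone, from 2 places in the marrow of mice. They were taken as every gene whose symbol is Mrpl or Mrps plus a number and which has a probe set annotated to it alone. This gave 76 of the 18193 genes measured, 47 named Mrpl and 29 named Mrps, read by 156 probe sets. A further 2, Mrpl30 and Mrpl53, were read only by probe sets shared with another gene and were left out. The cells were sorted from total marrow of adult NOD.CB17-Prkdc scid/J (NOD/SCID) mice, which lack mature B and T cells because of the scid mutation and which the series' text calls recipients. The sort kept cells with the integrin CD51 and without CD45, CD31, Sca1 and the lineage (Lin) antigens of mature blood cells. All groups share this strain and sort. One group came from the trabecular bone area and the other from the long bone area, with 2 arrays each, called biological replicates in the titles. How many mice stand behind an array, and whether arrays share mice, was not stated in the labels, so the p-values measure only the spread between these samples, which may be technical.

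Mitochondria make a few core proteins of the respiratory chain on ribosomes of their own. The RNA of these ribosomes comes from mitochondrial DNA, while all their proteins are encoded in the nucleus, made in the cytosol and imported. The large subunit joins amino acids and the small subunit decodes the messenger RNA. Many of the proteins have a counterpart in bacterial ribosomes, and the others were added during the evolution of mitochondria. In bone, osteoblasts are known to draw on both glycolysis and respiration.

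The genes of these proteins lie apart in the genome, on 16 chromosomes among the 67 members that have a promoter window in RefSeq (build GRCm38.p6). Their promoters are printed because nuclear genes of mitochondria are known to be bound by NRF1, by the ETS factor GABPA and by YY1, and because the members were compared as a set. The stretches below run from 100 bases before to 30 bases after the annotated start, 5′ to 3′ along the gene's strand. Mrpl9, Mrps23 and Mrps30 had the largest positive differences among members with no overlap, exactly 1 window and the NRF1, ETS or YY1 letters in it, in turn. Mrps21 and Mrps10 are the members that were lower there with no overlap. Capitals mark the letters of a motif searched. The positions are chr3:94443236-94443365 (plus strand), chr11:88204288-88204417 (plus strand), chr13:118387223-118387352 (minus strand), chr3:95871485-95871614 (minus strand) and chr17:47369097-47369226 (plus strand).
Mrpl9: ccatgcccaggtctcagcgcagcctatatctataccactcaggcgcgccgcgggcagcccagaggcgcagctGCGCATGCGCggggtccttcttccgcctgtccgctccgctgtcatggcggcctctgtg
Mrps23: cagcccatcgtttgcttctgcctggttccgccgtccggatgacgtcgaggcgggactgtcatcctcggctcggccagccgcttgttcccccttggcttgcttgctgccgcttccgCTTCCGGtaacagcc
Mrps30: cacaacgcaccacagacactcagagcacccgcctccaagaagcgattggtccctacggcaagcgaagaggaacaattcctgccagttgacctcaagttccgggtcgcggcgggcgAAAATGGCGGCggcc
Mrps21: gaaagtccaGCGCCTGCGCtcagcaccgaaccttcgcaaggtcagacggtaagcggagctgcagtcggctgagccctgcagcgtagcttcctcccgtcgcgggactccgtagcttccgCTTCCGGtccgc
Mrps10: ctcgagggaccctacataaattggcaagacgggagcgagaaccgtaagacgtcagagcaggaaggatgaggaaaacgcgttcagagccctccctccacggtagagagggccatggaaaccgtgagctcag

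Each window of 250 bases before to 50 after the start was searched on both strands for the consensus of NRF1 (10 letters), CCGGAAG (ETS factors such as GABPA), the consensus of YY1 (11 letters) and GGGCGG (SP1). The NRF1 letters were in the windows of 12 of the 67 members (17.9%), against 8.61% of the 14452 measured genes with a window. The ETS letters were in 25 members (37.3%, against 15.0%), the YY1 letters in 7 (10.4%, against 1.94%) and the SP1 letters in 34 (50.7%, against 57.3%). In the member windows 2 pairs of matches to different motifs shared a base. In the stretches printed, Mrpl9 holds the NRF1 letters, Mrps23 the ETS letters, Mrps30 the YY1 letters and Mrps21 both the NRF1 and the ETS letters. The stretch of Mrps10 holds none of these letters, nor does the rest of its window. All 7 members with the YY1 letters, Mrpl27, Mrpl35, Mrpl37, Mrps11, Mrps18a, Mrps27 and Mrps30, were among those higher in the trabecular area with no overlap. The matching share among all measured genes with these letters was not computed. Members of that kind made up 51.3% of the 76, against 29.9% of all genes. Of 34 members of that kind with a window, 4 held the NRF1 letters, 11 the ETS letters and 16 the SP1 letters, against 8, 14 and 18 of the other 33. These splits use the measured differences and are descriptions, with no test.

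The deposited values are log2 expression (RMA) relative to the median of the 4 arrays, set to 0 for each probe set, so a gene has differences between arrays and no level. For a gene with 1 probe set (34 members) the middle pair of arrays is therefore equal and opposite around 0. A gene with more was given the mean of its probe sets. A coarse level can be read from the step of the stored numbers. Of 155 member probe sets so read, 79 (51.0%) lay at levels of 8 and above on the log2 scale, against 33.9% of all probe sets read, and 53 members had at least 1 such probe set. A probe set counts as such, and is called bright, only if all its values read fit that level. Long bone array 2 stood apart, with an SD over all genes of 0.428 against 0.231 to 0.239 on the others. The 5′ minus 3′ difference of its Gapdh control, a sign of RNA integrity, was -1.16 there and -0.09 to 0.31 on the others. That of the beta-actin control was -0.04 there and -0.07 to 0.44 on the others, so this control did not set the array apart. All 9 spiked hybridisation control probe sets were lower on both trabecular arrays, by a median of -0.39.

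The sort was checked on its markers, for which the values give differences and coarse levels only. Of 4 osteoblast markers measured, 3 (Alpl, Ibsp and Col1a1) had a probe set at a level of 8 or above. Both trabecular arrays lay below both long bone arrays for all 4 (median -1.20), as for all 6 cartilage markers (median -3.29). The same held for 21.4% of all genes. The 5 reticular stroma markers followed long bone array 2, where their median was 1.76 against -0.58 to 0.10 on the others. Neutrophil markers, 5 of 7 of them with a probe set at that level in this CD45-negative sort, had a median difference of 0.06, and the 7 proliferation genes had one of 0.06. The remaining neutrophil markers, S100a8 and S100a9, had too few values away from 0 for their level to be read. Of the macrophage markers 4 of 4 were higher (median 0.28), and of the T and NK cell markers 3 of 3 (median 0.22), against 54.6% of all genes. The endothelial, erythroid and B cell medians were 0.04, 0.01 and -0.50. The macrophage and T and NK cell lists too had bright probe sets, for 3 of 4 and 3 of 3 genes. Such probe sets were also held by 3 of 5 reticular stroma, 2 of 4 erythroid and 7 of 7 proliferation genes. The cartilage, endothelial and B cell lists had them for 1 of 6, 1 of 5 and 1 of 4 genes. As all values read must fit that level, a gene low in 1 area can miss it while high in the other. The cartilage genes were lower in the trabecular area, so their count does not show a low level in the long bone area. Of the sorting antigens, Ptprc (CD45) had a bright probe set in this CD45-negative sort and differed by -0.34, Itgav (CD51) by -0.13 and Pecam1 (CD31) by -0.02. The part of these cell types in the values below was not tested. In sorted bulk samples, fewer cells of a type and less RNA per cell cannot be told apart.

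Mitochondrial ribosomal protein genes were on the whole higher in the trabecular area, by small amounts. Of the 76, 63 were higher and 13 lower, with a median log2 difference (trabecular minus long bone) of 0.30, against 0.03 over all 18193 genes, of which 54.6% were higher. Both trabecular arrays lay above both long bone arrays for 39 members (51.3%, background 29.9%), below them for 2 (2.63%, background 21.4%), and the areas overlapped for 35. The middle 50% of members ran from 0.08 to 0.49, against -0.14 to 0.27 for all genes. A difference of at least 0.50 was seen for 19 members higher and 3 lower, and none reached 2-fold. None of the 76 passed the test. In limma's moderated test 0 genes of 18193 (0%) had an adjusted p under 0.05, and the lowest among members was 0.234. At an unadjusted p under 0.05 there were 16 members higher (21.1%, background 10.8%) and 1 lower (Mrps21, background 4.62%). With 2 arrays a side, the smallest two-sided p of an exact permutation test is 0.333.

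**Figure D1:**
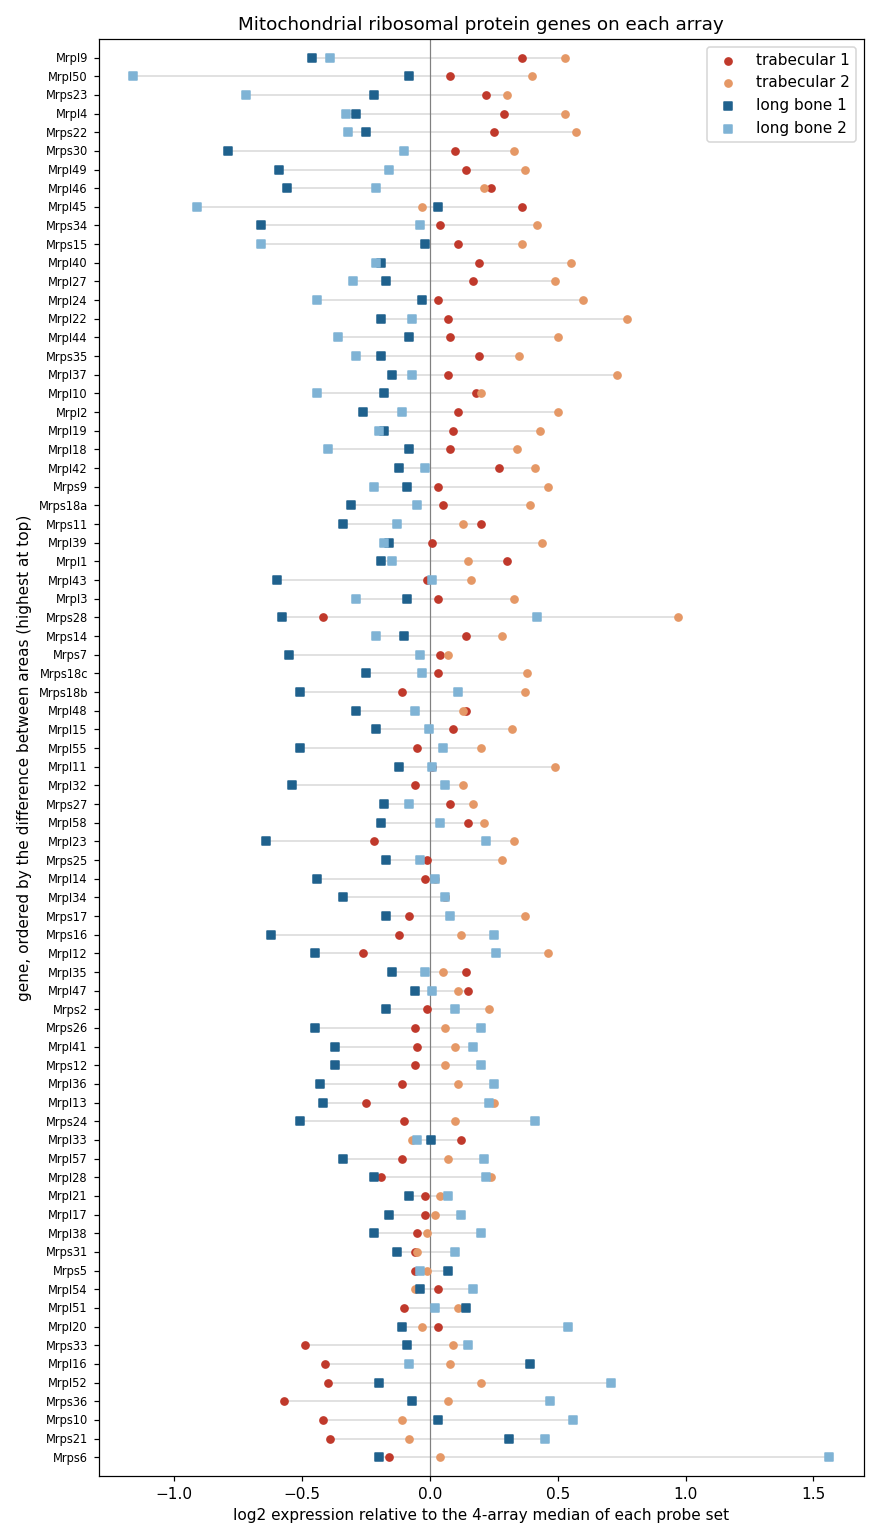
Log2 expression relative to the 4-array median (horizontal axis) for each of the 76 genes (vertical axis, ordered by the difference between areas), with circles for trabecular and squares for long bone arrays. Circles lie right of squares for 39 genes and left of them for 2, and trabecular array 2 and long bone array 1 hold most of the outer points.

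The arrays did not share in this equally. The median of the members was 0.21 on trabecular array 2 and 0.03 on trabecular array 1, and the long bone arrays 1 and 2 had medians of -0.19 and -0.02. Trabecular array 2 was the highest array for 45 members, and long bone array 1 was the lowest for 48. On long bone array 2 the members were spread widest, from -1.16 (Mrpl50) to 1.56 (Mrps6), with 36 above 0 and 40 below. The medians over all genes were -0.03 to 0.02. The median difference was thus sensitive to single arrays. Without long bone array 1 it was 0.12 (all genes 0.01), with 47 members higher (61.8%, against 51.1% of all genes). Without trabecular array 2 it was 0.18 (all genes 0.04). Without trabecular array 1 it was 0.40. Without long bone array 2, the array that stood apart, it was 0.39, with 69 members higher (90.8%, against 58.4% of all genes). In all, 48 members kept their sign whichever array was left out, 44 of them higher and 4 lower. The matching shares of all genes for kept signs, and for the highest and lowest array, were not computed.

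**Figure D2:**
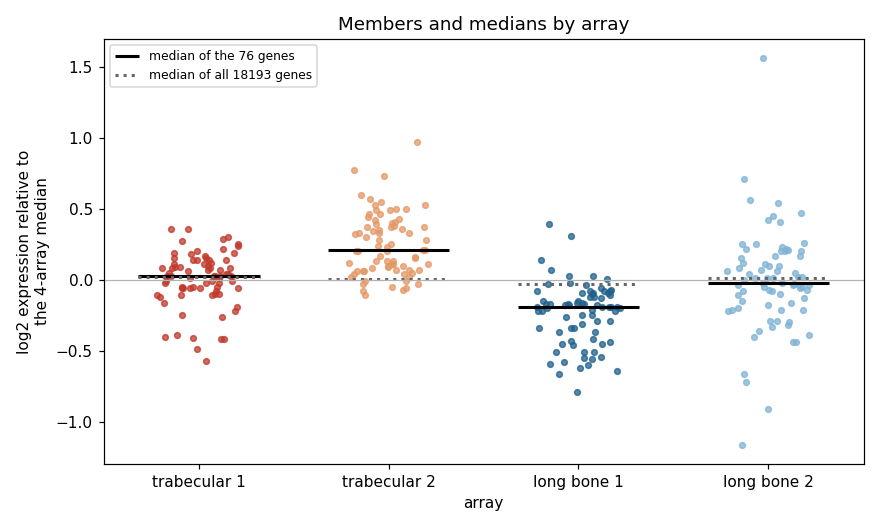
Log2 expression relative to the 4-array median (vertical axis) of the 76 genes on each array (points), with the median of the members (solid line) and of all 18193 genes (dotted line). The members' median is 0.21 on trabecular array 2 and -0.19 on long bone array 1, while the all-gene medians stay between -0.03 and 0.02.

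Brighter probe sets were higher in the trabecular area more often than dimmer ones, over all genes as among the members. Among the 12496 single-gene probe sets at levels of 8 and above, 69.5% were higher there (median 0.22), against 45.7% of the 21693 dimmer ones (median -0.03). Member probe sets followed the same order, with 68 of 79 bright ones higher (86.1%, median 0.35) and 50 of 76 dimmer ones (65.8%, median 0.15). With dimmer probe sets left out of the gene means, the median was 0.37 for the 53 members left and 0.20 for all 8785 genes left. The difference between members and all genes was then 0.17 in place of 0.27. Of the 53 members left, 28 were higher with no overlap, against 42.3% of the 8785 genes.

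The large subunit had 49 members here, counting Mrps30 and Mrps18a, which sit in it despite their names. Of these 43 were higher and 6 lower, 27 higher with no overlap (55.1%, background 29.9%) and 0 lower with no overlap (background 21.4%), and the median difference was 0.31. Mrpl9, whose bacterial counterpart is a large-subunit protein, had the largest difference of all members. Its trabecular arrays read 0.36 and 0.53 and its long bone arrays -0.46 and -0.39, each time array 1 before array 2, as in all values that follow. Both areas were tight, and the difference was 0.87 (1.83-fold, SE 0.13, 95% interval 0.52 to 1.22), with an adjusted p of 0.234 in limma. Its 3 probe sets, all bright, were each higher, by 0.28 to 1.41, and leaving out 1 array gave 0.79 to 0.95. Mrpl50, a mitochondria-specific protein, was at 0.08, 0.40, -0.08 and -1.16 in the same order of arrays. Its difference of 0.86 (95% interval -0.19 to 1.91, adjusted p = 0.373 in limma) came largely from long bone array 2 and was 0.32 without it. The dimmer of its 2 probe sets was at -2.06 on that array and differed by 1.32, and the bright one differed by 0.40.

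Mrpl4, a protein of the tunnel through which the new chain leaves, was at 0.29 and 0.53 in the trabecular area and at -0.29 and -0.33 in the long bone area. The difference was 0.72 (1.65-fold, SE 0.14) and stayed at 0.60 to 0.84 with any 1 array left out. Mrps30 was at 0.10 and 0.33 against -0.79 and -0.10. Its difference of 0.66 was 0.31 without long bone array 1, the lowest array. The mitochondria-specific Mrpl49 (0.14 and 0.37 against -0.59 and -0.16) and Mrpl46 (0.24 and 0.21 against -0.56 and -0.21) differed by 0.63 and 0.61. For both, long bone array 1 lay lowest, and the 2 areas did not overlap.

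The stalk of the large subunit recruits translation factors. Mrpl10, which anchors the stalk, was at 0.18 and 0.20 in the trabecular area and at -0.18 and -0.44 in the long bone area, a difference of 0.51 (95% interval 0.12 to 0.89). Mrpl12, the flexible part of the stalk, was at -0.26 and 0.46 against -0.45 and 0.26. Its areas overlapped, and the difference of 0.19 (95% interval -0.75 to 1.14) turned to -0.16 without long bone array 1 and -0.17 without trabecular array 2. Mrpl11, at the base of the stalk, was at 0.01 and 0.49 against -0.12 and 0.01 (difference 0.30).

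Mrpl3, which reaches towards the site of peptide bond formation, was at 0.03 and 0.33 in the trabecular area and at -0.09 and -0.29 in the long bone area (difference 0.37). Mrpl44, which has the fold of an RNA-cutting enzyme, was at 0.08 and 0.50 against -0.08 and -0.36 (difference 0.52). Mrps18a, a relative of a bacterial small-subunit protein, was at 0.05 and 0.39 against -0.31 and -0.05 (difference 0.40). In these 3 genes trabecular array 1 lay close to 0 and trabecular array 2 well above it. Mrpl45, which lies at the tunnel exit and holds the ribosome to the inner membrane, was at 0.36 and -0.03 against 0.03 and -0.91. Its areas overlapped, and the difference of 0.61 (95% interval -0.34 to 1.55) was 0.14 without long bone array 2. The members nearest to 0 were in this subunit too, Mrpl38 (-0.02), Mrpl21 (0.02) and Mrpl28 (0.02).

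The small subunit had 26 members, of which 20 were higher and 6 lower, with a median of 0.25. There were 12 higher with no overlap (46.2%, background 29.9%) and 2 lower (7.69%, background 21.4%). Mrps23, a mitochondria-specific protein, was at 0.22 and 0.30 on the trabecular arrays and at -0.22 and -0.72 on the long bone arrays, a difference of 0.73 (SE 0.20). Mrps22, which is mutated in a human deficiency of the respiratory chain, was at 0.25 and 0.57 against -0.25 and -0.32. Its difference was 0.70 (1.62-fold, SE 0.16, 95% interval 0.27 to 1.12, adjusted p = 0.246 in limma) and lay between 0.53 and 0.86 with any 1 array left out. Mrps34, another disease gene of this kind, was at 0.04 and 0.42 against -0.66 and -0.04 (difference 0.58). Mrps7, in the head of the subunit, was at 0.04 and 0.07 against -0.55 and -0.04 (difference 0.35).

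Of the 17 small-subunit genes with a bacterial counterpart, 9 had overlapping areas, a share near that of all genes (8849 of 18193). Mrps12, whose bacterial counterpart shapes the decoding site, was at -0.06 and 0.06 in the trabecular area and at -0.37 and 0.20 in the long bone area. Mrps16, also mutated in human disease, was at -0.12 and 0.12 against -0.62 and 0.25. In both genes the long bone arrays enclosed the trabecular ones. The differences of 0.09 and 0.19 turned to -0.20 and -0.25 without long bone array 1.

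The 13 members that were lower in the trabecular area were 6 of the large subunit, 6 of the small subunit and Mrps36. The most negative differences were in the small subunit. Mrps21, a counterpart of a bacterial small-subunit protein, was at -0.39 and -0.08 against 0.31 and 0.45 (difference -0.61, 95% interval -1.05 to -0.18, adjusted p = 0.260 in limma). Its 2 probe sets ran in opposite directions. The bright one was higher in the trabecular area (0.07 and 0.54 against -0.07 and -0.50, difference 0.60). The dimmer one was lower (-0.85 and -0.70 against 0.70 and 1.40, difference -1.82), so the lower mean of this gene rests on that probe set. Mrps10, also with a bacterial counterpart, was at -0.42 and -0.11 against 0.03 and 0.56, a difference of -0.56 (95% interval -1.19 to 0.06), and its 2 dimmer probe sets were both lower, by -0.62 and -0.51. Mrps6, singled out after its values were seen, had the most negative mean difference at -0.74. It was at -0.16 and 0.04 against -0.20 and 1.56, so that only long bone array 2 was high, and without that array the difference was 0.14. Mrps36, which meets the naming rule but is known as a part of the alpha-ketoglutarate dehydrogenase complex and not of the ribosome, differed by -0.45 with overlap.

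Proteins with a bacterial counterpart and those specific to mitochondria were both mostly higher. Of 47 with a counterpart, 41 were higher, with a median of 0.27, and of 28 mitochondria-specific ones 22 were higher, with a median of 0.39. No overlap with higher values held for 22 (46.8%) and 17 (60.7%) of these, against 29.9% of all genes. The difference between the classes, and that between the subunits, was not tested.

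Probe sets of the same gene did not always run the same way. Taken singly, 119 of the 156 member probe sets were higher (76.3%, background 54.3%), and none had an adjusted p under 0.05 in limma, against 0.00572% of all single-gene probe sets. Of the 42 members with several probe sets, 24 had all of them on 1 side of 0 and 18 had both signs. In 5 genes, probe sets lay at least 0.3 on either side. Besides Mrps21 these were Mrpl15, with 8 probe sets from -0.51 to 1.16 (mean 0.31), Mrpl48, from -0.49 to 0.74 (mean 0.31), Mrpl33, from -0.34 to 0.45 (mean 0.05), and Mrps25, from -0.31 to 0.65 (mean 0.24). In Mrpl15, Mrpl48 and Mrps21 the probe sets that were lower belonged to the dimmer ones. This did not hold for Mrpl33, where both probe sets were bright, and in Mrps25 all 3 were dimmer. Probe sets whose names mark possible binding of several transcripts (s_at and x_at) numbered 23, with a median of 0.37, against 0.21 for the other 133. Such probe sets may not tell a gene from its close copies.

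**Figure D3:**
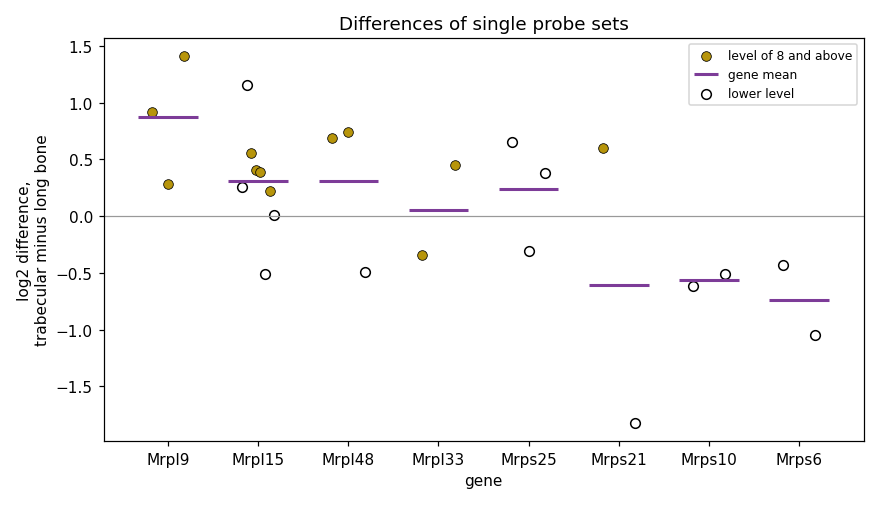
Log2 difference, trabecular minus long bone (vertical axis), of each probe set (circles, filled at levels of 8 and above) and of the gene mean (line) for 8 genes (horizontal axis). All 3 probe sets of Mrpl9 lie above 0, while the probe sets of Mrps21 lie at 0.60 and -1.82.

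Of 6 ribosome parts with other names, 4 were measured, 2 higher and 2 lower, with differences from -0.16 to 0.31. Dap3, the GTP-binding protein of the small subunit, differed by 0.31 with no overlap. Ptcd3, an RNA-binding small-subunit protein, differed by 0.05, Gadd45gip1 of the large subunit by -0.06 and Chchd1 by -0.16, each with overlap.

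The other machinery of mitochondrial gene expression was taken from lists chosen for their function. No gene on them passed the test over all genes. The counts with no overlap are to be read against 29.9% of all genes higher and 21.4% lower. Of 13 translation factors 10 were higher, with a median of 0.22. With no overlap 5 were higher (38.5%) and 2 lower (15.4%). They ranged from the initiation factors Mtif3 (0.87) and Mtif2 (0.57, with overlap) to the elongation factor Tsfm (-0.07) and the amidotransferase subunit Gatc (-0.19). Mtif3 was at 0.62 and 0.36 in the trabecular area and at -0.39 and -0.36 in the long bone area. Of 26 factors of ribosome assembly 20 were higher, with a median of 0.25. With no overlap 15 were higher (57.7%) and 2 lower (7.69%). Ngrn (0.76) and the GTPase Noa1 (0.73) led, and the GTPase Mtg1 (-0.16) and the helicase Dhx30 (-0.22) were at the other end.

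Mitochondrial tRNA synthetases, which load the transfer RNAs, had a median of 0.08, with 11 of 16 higher. With no overlap 5 were higher (31.2%, near the background) and 1 lower (6.25%). The tyrosine enzyme Yars2 was apart from the rest of this list at 1.18 (0.66 and 0.44 against -0.81 and -0.44), followed by the phenylalanine enzyme Fars2 at 0.61. At the low end were Nars2 (-0.10) and Sars2 (-0.25). Genes of mitochondrial DNA copying, transcription and RNA processing were all higher, 14 of 14, and 9 of them did not overlap (64.3%). Their median was 0.31. Polg2, a subunit of the mitochondrial DNA polymerase, differed by 0.69 and Trmt10c, a subunit of the enzyme that trims transfer RNAs, by 0.67. Of the genes that place new proteins in the inner membrane, Oxa1l and Cox18 differed by 0.17 and 0.10, and 4 of 4 were higher.

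Respiratory chain and ATP synthase subunits, the complexes these ribosomes serve, had values close to those of the members. Of 82, 68 were higher and 37 were higher with no overlap (45.1%, background 29.9%), with a median of 0.26. A bright probe set was held by 75 of them, and over bright probe sets alone 42.3% of all genes were higher with no overlap. Cox7c (0.86) and Uqcrfs1 (0.83) were highest, and Cox6a2 and Ndufb2 (both -0.24) lowest. Mitochondrial import genes had a median of 0.27, with 16 of 23 higher. With no overlap 8 were higher (34.8%) and 3 lower (13.0%). Cytosolic ribosomal proteins, the parts of the ribosomes outside mitochondria, had a median of 0.13. Of 49, 36 were higher but 10 with no overlap (20.4%), below the background. All these genes were read on the same 4 arrays as the members, so their medians are not independent of those of the members.

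**Figure D4:**
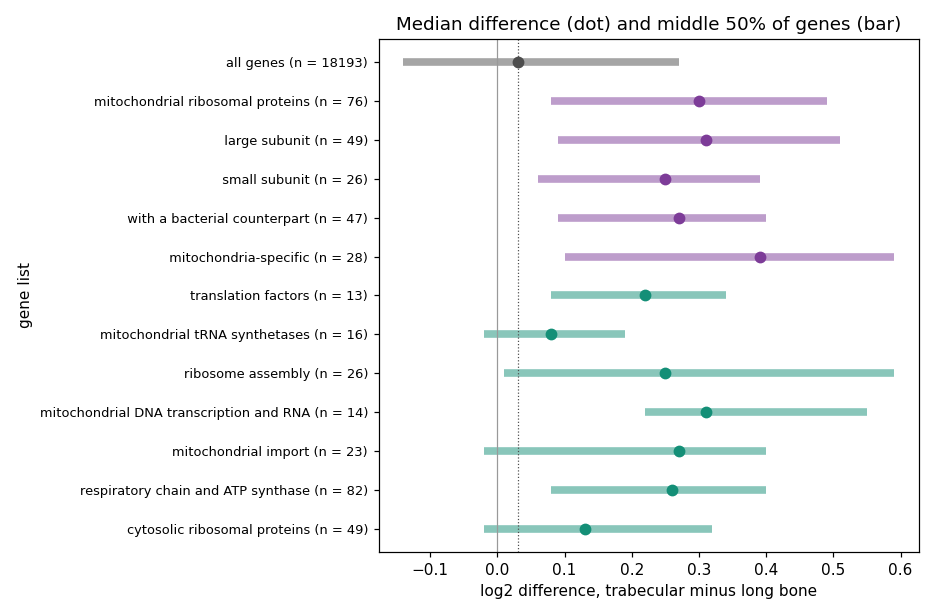
Median (dot) and middle 50% (bar) of the log2 difference, trabecular minus long bone (horizontal axis), for all genes, the members, their subunits and classes, and related lists (vertical axis, with the number of genes). The members' median of 0.30 lies above the 0.03 of all genes, and cytosolic ribosomal proteins lie between them at 0.13.

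The factors whose letters were searched in the promoters, and regulators known to act on such genes, were read too. Of 13 regulators 8 were higher, with a median of 0.10. With no overlap 4 were higher (30.8%) and 3 lower (23.1%), near the background. Max, the partner of Myc, differed by 1.33 (0.75 and 0.45 against -0.45 and -1.02) and Gabpa by 0.87 (0.38 and 0.29 against -0.26 and -0.81), both with no overlap. Ppargc1b, a coactivator of mitochondrial genes, differed by -0.42 and Gabpb2 by -0.26. Yy1 differed by 0.50 (0.17 and 0.21 against -0.33 and -0.30) and Nrf1 by 0.10 with overlap. Sp1 differed by 0.41 (0.25 and 0.19 against 0.13 and -0.50) with no overlap. Yy1, Nrf1 and Sp1 were named for the motif search after their values were seen.

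The size of these values depends on what each array is scaled to. Centring each array on its spiked hybridisation controls moved the median of all genes from 0.03 to 0.43 and that of the members from 0.30 to 0.70. With that scaling 72 members were higher and 4 lower, against 93.0% of all genes higher, and 18 members passed the test, against 15.7% of all genes. This scaling, like median centring, shifts all genes of an array by the same amount. The gap of 0.27 between members and all genes is therefore fixed by construction.

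**Figure D5:**
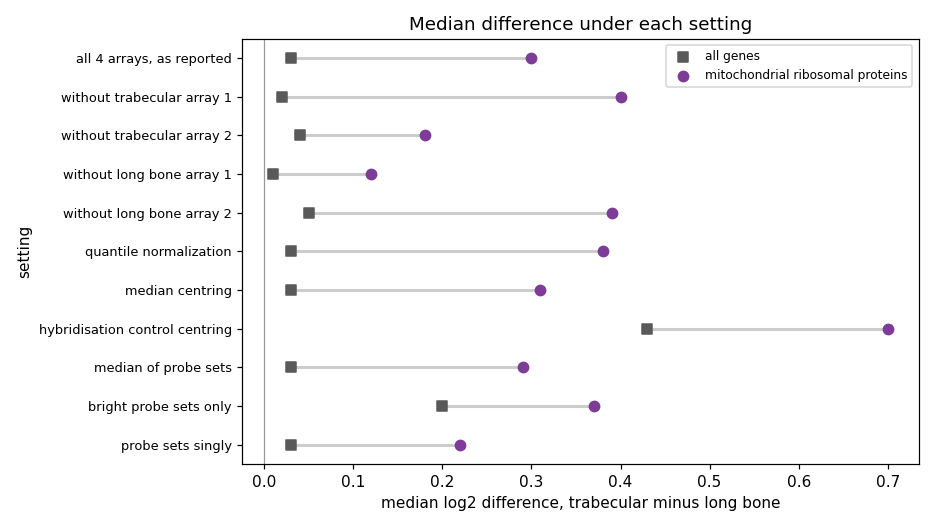
Median log2 difference, trabecular minus long bone (horizontal axis), of the members (circles) and of all genes or, for single probe sets, all single-gene probe sets (squares) under each setting (vertical axis). The members lie above all genes in every setting shown, by 0.11 without long bone array 1 and by 0.38 without trabecular array 1. Median centring and hybridisation control centring shift all genes of an array alike, so the gap of 0.27 could not change there.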

How the data were processed

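RNA of sorted mouse marrow cells was amplified, labelled and hybridised to Affymetrix arrays, 2 per area. A human array is named in the series' text, whereas probe set names and platform annotation are those of a mouse array. The deposited values are log2 expression made with RMA, per the submitters' processing notes, which give no version. The authors or their software also centred each probe set: the median over the 4 arrays is 0 for all 45101, within 1e-06. The log base is not stated and is what RMA gives. Centring keeps differences and removes levels.

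Controls (64) were left out. Of 45037 other probe sets, 34945 had 1 gene, 932 several and 9160 none in the platform annotation, and a gene was given the mean of its single-gene probe sets. All 156 member probe sets matched RefSeq by gene ID, with 0 symbols changed. The test was limma's moderated one (version 3.58.1, R 4.3.3), on the difference of trabecular minus long bone arrays with 2 residual and 2.5 prior degrees of freedom, with Benjamini-Hochberg adjustment over all 18193 genes at 0.05. The fit was tested on simulated data. No gene set was tested. Identical values were found in 65 to 107 probe sets between any pair of arrays, so no array was a copy of another. Whether a level was 8 or above was read from the step between storable numbers, using values no smaller than 0.001 and 3 of them at the least. All values used had to fit, so a single array below 8 could put a probe set among the dimmer ones. Since levels are missing, the median of a gene's probe sets stood in for its brightest one.

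The members and lists were chosen with earlier results of these data known. Named members are the 8 largest higher and up to 5 largest lower differences with no overlap (2 existed), the 3 nearest 0, those whose probe sets differ in sign by at least 0.3 each way, and 13 chosen for their role. From other lists up to 2 genes per direction are named. Alternatives were the replicate block, each array left out, a trend in the prior variance, ordinary t statistics, 3 scalings, the median of probe sets, bright probe sets and single probe sets. Background correction and slide could not be varied from this table.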

Additional observations from a re-analysis of the deposited data

How the results depend on the processing

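The number of arrays limits every value. The titles give both areas the numbers 1 and 2. Deviations of same-numbered arrays from their area means had a correlation of -0.115 over all genes and 0.205 over the members. No label says that a number marks a shared mouse or day, so the arrays were taken to share only a number. With the replicate number as a block, 0 genes were called, and 3 members were lower at an unadjusted p under 0.05 in place of 1. Over all genes 3.2% were then lower at that p.

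Over all genes 1603 were called without long bone array 1, 1 without long bone array 2 and 0 without either trabecular array. In the first case 3 members were called (Mrpl50, Mrps23 and, lower, Mrps6), against 8.81% of all genes. With 1 array left out, the lone array of an area is assumed to vary like the others. The count of called genes was 40 with a trend in the prior variance, 1 with ordinary t statistics, 2 probe sets when tested singly and 2857 after centring on hybridisation controls. These last also gave 18 members called, 61 higher with no overlap, 49 higher and 0 lower at an unadjusted p under 0.05, 0 lower with no overlap and a median of 0.70. Of all genes, 79.2% were then higher with no overlap and 51.5% higher at that p. Leaving out 1 array, members higher with no overlap numbered 40 to 65 and lower 4 to 20, those at an unadjusted p under 0.05 numbered 2 to 24 higher and 0 to 5 lower, and the median was 0.12 to 0.40. Over all genes, 40.1% to 44.6% were then higher and 28.6% to 40.4% lower with no overlap, and 3.95% to 18.8% higher and 1.60% to 11.2% lower at that p. Taken singly, 63 of 156 probe sets were higher and 14 lower with no overlap, and 27 were higher and 4 lower at that p (all probe sets 29.8%, 21.9%, 10.5% and 5.17%). Bright probe sets left 53 members, with 9 higher (all genes 14.5%) and 0 lower (2.62%) at that p and 0 lower with no overlap (14.2%). With ordinary t statistics 5 of the 76 members were higher at that p, near the 5.7% of all genes, and 0 were lower (3.99% of all genes). Members lower at that p were 2 with the trend (all genes 5.05%) and 2 after quantile normalization (all genes 6.52%).

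Of the named members, 8 turned sign in some setting. With 1 array left out, Mrpl12 ranged from -0.17 to 0.56, Mrpl21 from -0.05 to 0.09, Mrpl28 from -0.20 to 0.24, Mrpl33 from -0.04 to 0.14, Mrpl38 from -0.23 to 0.19, Mrps12 from -0.20 to 0.37 and Mrps16 from -0.25 to 0.62. Without long bone array 1 Mrpl12 was at -0.16, Mrpl21 at -0.05, Mrpl28 at -0.20, Mrps12 at -0.20 and Mrps16 at -0.25. Without trabecular array 2 Mrpl12 was at -0.17, Mrpl21 at -0.01 and Mrpl28 at -0.19. Without trabecular array 1 Mrpl33 was at -0.04 and Mrpl38 at 0.0046, and without long bone array 2 Mrpl38 was at 0.19. Mrpl38 was at 0.04 after quantile normalization, 0.38 after centring on hybridisation controls and 0.0026 with the median of probe sets, where Mrpl21 was at -4.8e-07. Mrps21 was at 0.60 over bright probe sets alone. The cause of these turns was not tested.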
